A study of Mus musculus with 50 samples.

Results

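The 20000 WT ATAC regions with the highest scores outside SUZ12 peaks were examined in mouse embryonic stem cells (ESCs), and most of them were weak calls. ATAC-seq marks DNA that a transposase can reach, and the score of a region is its -log10 p as deposited, which the broad mode of the peak caller MACS2 averages over the region. Of 758495 WT regions on chromosomes 1 to 19, 753782 shared no base with a WT SUZ12 peak, and the members are the 20000 of these with the highest score (2.65%). The members were thus selected on WT scores and on the absence of WT SUZ12, which are given only as a description. The median member scored 2.37, against 1.35 for all regions outside SUZ12, and 99% of members scored at most 5.004. The 5 members just inside the cut and the 5 regions just outside it all scored 2.14, so the cut fell within a continuous run of scores. Only 1.01% of members scored 5 or more, 72 members scored 10 or more and 4 scored 1000 or more. The members are thus the strongest WT regions of a permissive list, and the word strong fits only the top of it. Another 698 WT regions reached the same score but lay on SUZ12.

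The study asked how loss of the PRC2 enzymes EZH1 and EZH2, or of their activity alone, changes chromatin in ESCs. The unedited line was E14 (WT), and the others were CRISPR/Cas9 edited. *Ezh2* KO and the double knockout *Ezh1/2* dKO (dKO) carry macrodeletions, while the Y726D line carries a catalytically dead EZH2, and the R685C line another EZH2 point mutation, each in *Ezh1* KO cells. HA ChIP-seq used dKO ESCs transfected with a vector for HA-tagged human EZH1 and selected with puromycin, and untransfected dKO ESCs. All lines grew in medium with serum and 2i/LIF, and lists labelled for Y726D without the *Ezh1* KO were taken as the same line. ATAC-seq and each ChIP-seq target had 1 library per line, so no difference between lines in these lists was tested. RNA-seq had 2 libraries for each line but R685C, with 3604123 to 5181553 reads per library. The depth behind the peak lists is unknown. The labels do not say whether the RNA-seq replicates were separate cultures, so their p-values measure the spread between these libraries. WT H3K27ac was not analysed here.

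Open chromatin in ESCs lies mainly at promoters, at enhancers and at sites of architectural proteins such as CTCF. H3K27ac, placed by EP300 and CREBBP, accompanies active promoters and enhancers, while PRC2 methylates the same lysine and keeps developmental genes silent. A lysine carries either acetylation or methylation, which is why acetylation outside PRC2 sites is of interest in cells without PRC2 activity.

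Sequence windows of 6 members give examples of the DNA that the members hold (mm9, assembly NCBIM37, forward strand). Each was taken from the highest scoring member of its kind, among those considered, that was at most 1000 bp wide. Some members, such as those whose window touched an untranslated region, were not considered. The *Ezh1* window (chr11:101069416-101069619) is the member that lies wholly on an exon, with the exon in capitals, and belongs to the group of *Ezh1* members described below. The other windows carry the searched motif in capitals. Their kinds were set by the motif together with H3K27ac, and for some windows also by list membership or promoter place. These traits, given below for each window, were thus part of the choice and are not results. The CTCF window (chr1:67108153-67108272) is intergenic, 22515 bp from the nearest TSS (*Lancl1*), and its member was in the equal-length lists of all 3 mutant lines without H3K27ac in any line. The ESRRB window (chr12:42830927-42831046) lies in a gene body and its member had H3K27ac in all 4 mutant lines profiled. The octamer window (chr1:186321055-186321174) is intergenic, and its member had H3K27ac in 3 lines. The NRF1 window (chr12:88225819-88225938) and the ETS window (chr4:102787197-102787316) lie in the promoters of *6430527G18Rik* and *Wdr78*, and both members had H3K27ac in all 4 lines.
Ezh1 exon: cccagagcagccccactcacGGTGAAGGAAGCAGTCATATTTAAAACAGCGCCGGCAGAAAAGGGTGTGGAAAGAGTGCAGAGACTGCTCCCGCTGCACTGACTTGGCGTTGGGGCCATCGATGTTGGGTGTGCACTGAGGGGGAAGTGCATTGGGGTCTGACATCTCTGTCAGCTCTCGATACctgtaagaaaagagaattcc
CTCF: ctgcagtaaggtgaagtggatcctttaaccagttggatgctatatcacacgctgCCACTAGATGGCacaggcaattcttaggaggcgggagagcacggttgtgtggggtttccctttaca
ESRRB: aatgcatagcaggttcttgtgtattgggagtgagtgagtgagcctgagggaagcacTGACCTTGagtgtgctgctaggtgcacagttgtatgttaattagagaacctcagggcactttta
octamer: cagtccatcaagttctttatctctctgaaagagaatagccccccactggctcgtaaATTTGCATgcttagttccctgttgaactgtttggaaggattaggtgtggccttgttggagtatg
NRF1: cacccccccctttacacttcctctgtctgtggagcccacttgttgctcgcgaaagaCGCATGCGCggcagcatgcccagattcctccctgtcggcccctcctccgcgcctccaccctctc
ETS: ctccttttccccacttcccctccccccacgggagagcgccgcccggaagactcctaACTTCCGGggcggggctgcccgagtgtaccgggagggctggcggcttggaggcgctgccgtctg

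Motifs of the promoter factors NRF1, ETS and SP1 and of CTCF were found in a larger share of members than of all open regions, whereas pluripotency motifs were not, or were so by less. Exact letters were searched on both strands in the central 300 bp of each region. NRF1 (GCGCATGCG) was in 0.365% of members and 0.0714% of the 753782 regions outside SUZ12. ETS (CCGGAAGT) was in 0.975% and 0.288%, and SP1 (GGGGCGGGG) in 2.65% and 0.728%. The CTCF core, searched under its name, was in 210 members (1.05%) against 0.288% of all regions. Smaller differences held for KLF (GGGNGTGG, 11.5% and 8.20%), NFY (GCCAATC, 3.10% and 2.19%) and ESRRB (CAAGGTCA, 2.46% and 2.07%). The octamer bound by POU5F1 (ATGCAAAT, 1.87% and 1.87%), SOX (CCATTGTT, 1.34% and 1.37%) and YY1 (AAGATGGC, 2.48% and 2.33%) were about as frequent in members as elsewhere. Members at promoters (within 1 kb of a TSS) had NRF1, ETS and SP1 in 1.58%, 3.35% and 10.2%. The other members had them in 0.0976%, 0.451% and 0.976%, nearer to all regions. CTCF was in 0.526% of promoter members and 1.17% of the others. KLF and SP1 letters can overlap in GC-rich DNA. The GC content moved with these shares, with a median of 48.0% in members and 44.7% in all regions, and its part in the motif shares was not tested. A match describes letters and not binding.

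The members lay at promoters more often than other open regions. Of the members, 3610 (18.05%) were within 1 kb of a transcription start site (TSS), compared with 4.73% of all regions outside SUZ12 and 12.1% of the 20000 regions next in rank. Gene bodies held 6940 members and intergenic DNA 9450. Promoter members were wide and GC-rich, with a median width of 1432 bp against 515 bp in gene bodies and 530 bp in intergenic DNA. Their median GC content was 58.7%, and 47.0% in the other members. Members ranged from 134 to 7247 bp in width, with a median of 647 bp.

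In the mutant lines the members kept a higher rank than other open regions, most often in *Ezh2* KO ESCs and least often in dKO ESCs. To compare lists of unequal strength, the list of each line was cut to its 20699 highest regions, the number that the WT list held at or above the cut. At or above that score the uncut lists held 33076 regions in *Ezh2* KO, 21887 in Y726D and 16760 in dKO. The shares of members and of all regions outside SUZ12 had the same order, and the part of library strength in it was not tested. A member shared a base with the equal-length list in 5459 cases in *Ezh2* KO (27.3%, Wilson 95% CI 26.7 to 27.9), against 2.49% of all regions outside SUZ12. In dKO ESCs these were 3415 members (17.1%, 16.6 to 17.6) against 2.16%, and in Y726D ESCs 4377 members (21.9%, 21.3 to 22.5) against 2.36%. The intervals cover counting error only. The next 20000 regions were in the same lists in 10.3%, 6.61% and 8.57%. The 698 regions on SUZ12 of the same score were found in 41.1%, 28.9% and 36.4%, and they were wider, with a median of 1710 bp.

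Being listed at all separated the members from other regions by less. In *Ezh2* KO, dKO and Y726D ESCs, 82.9%, 81.7% and 81.0% of members shared a base with some ATAC region, compared with 63.7%, 63.7% and 61.2% of all regions outside SUZ12. The median score of the listed members was 1.90, 1.64 and 1.74 in the same order. The median member stood at percentile 91.8, 84.6 and 87.9 of the list of the line, and 98.6 in WT. Scores reached the WT score of the same member in 22.6%, 6.49% and 11.8%. Since the members were chosen for high WT scores, lower values in any other library follow from the choice, and the drop from WT is not a result.

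The order of the lines was the same in most but not all bands of WT rank. Among the first 100 members, with a median WT score of 19.2, 99, 98 and 98 members were in the equal-length lists of *Ezh2* KO, dKO and Y726D. Among the next 900 the shares were 75.9%, 54.3% and 63.9%, and among the next 4000 they were 43.9%, 26.4% and 33.8%. Among the last 15000 they were 19.5%, 11.8% and 15.7%. The first 100 members were thus found almost everywhere, while most of the last 15000 were not in any of the 3 lists. In all, 12436 members were in no equal-length list, 3518 in 1, 2405 in 2 and 1641 in all 3 (8.21%). The largest group found in a single line was that of *Ezh2* KO with 1772 members, followed by Y726D with 1027 and dKO with 719.

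**Figure D1:**
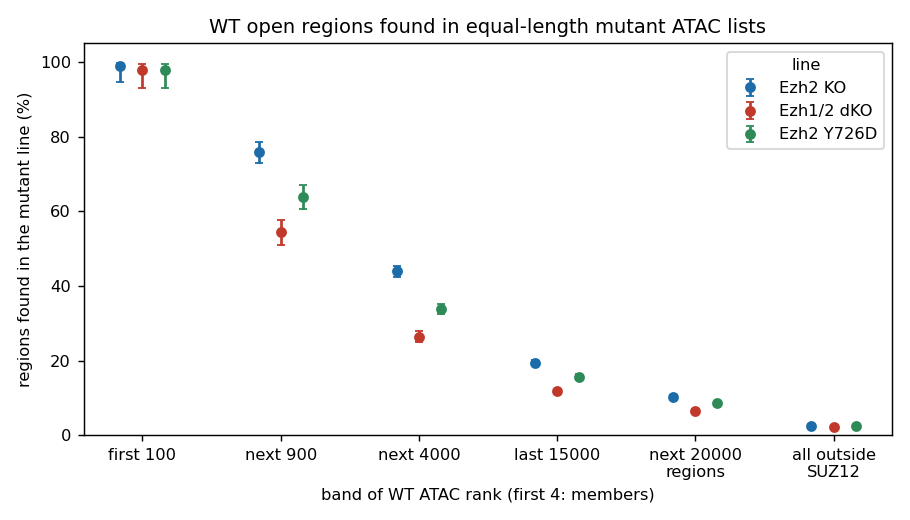
Share of WT ATAC regions outside SUZ12 (vertical axis, percent) that shared a base with the equal-length ATAC list of each mutant line, by band of WT rank (horizontal axis, from the first 100 to the last 15000 members, then the next 20000 and all regions). Points are 1 library per line and bars are Wilson 95% confidence intervals for counting error. The shares fall from 98 to 99% in the first 100 members to 11.8 to 19.5% in the last 15000, with dKO lowest in each band of members after the first.

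Width and place moved with these shares. Members up to 200 bp wide were in the equal-length lists in 4.17%, 3.89% and 3.19%, and members over 1500 bp in 54.9%, 35.9% and 46.7%, in the order *Ezh2* KO, dKO and Y726D. A wide region has more bases that can be shared, so this measure rises with width. At the same width over 1500 bp, the next 20000 regions reached 27.4%, 17.0% and 23.9%. Promoter members were found in 48.1%, 35.6% and 46.1%, gene body members in 18.3%, 10.1% and 13.9%, and intergenic members in 25.9%, 15.1% and 18.5%. Members in none of the lists had a median width of 417 bp and those in all 3 of 1354 bp. The share at promoters was 9.26% in the former and 40.5% in the latter.

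By chromosome, the Y726D list stood low on chromosome 12. There 15.1% of members were in its equal-length list and 71.4% in any region, while the other chromosomes ranged from 16.1% to 26.6% and from 77.7% to 84.8%. H3K27ac in the same line was also lowest on chromosome 12, with 15.5% of members against 17.7% to 24.7% elsewhere. *Ezh2* KO and dKO ESCs did not show their lowest share there, with 29.5% and 15.9% on chromosome 12 in their equal-length lists. Chromosome 19 had the lowest shares of these 2 lines, 19.2% and 12.1%.

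Ranked by the ratio of the line's score to the WT score, the member that stood highest was a different one in each line. In *Ezh2* KO it was the intergenic chr16:87208196-87209019, which scored 13.7, compared with 2.34 in WT, 2.01 in dKO and 3.63 in Y726D. In dKO it was chr1:85086971-85088292, over an exon of *A530032D15Rik*, which scored 9.27, against 3.67 in WT, 3.28 in *Ezh2* KO and 4.65 in Y726D. In Y726D it was the intergenic chr5:15115985-15116205 with 12.1, and this member also stood above its WT score of 3.22 in *Ezh2* KO (9.37) but not in dKO (2.54). None of these had an H3K27ac peak in any mutant line. At the other end were members that a line did not list at all, here given by the highest WT score among them. In *Ezh2* KO this was chr15:87798116-87798522, which scored 19.6 in WT, 18.2 in dKO and 14.6 in Y726D. In both dKO and Y726D it was chr9:110183594-110183855, which scored 36.97 in WT and 18.2 in *Ezh2* KO. Each of these values comes from 1 library per line, so the differences have no replicate check.

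The very highest scores included a region in *Ezh1* and regions that match the mitochondrial genome. The first 5 members scored 768 to 1395 in WT and 686 to 2190 in the mutant lines, with no H3K27ac peak in any line. Rank 1 lies in *Ezh1*, rank 2 in the promoter of *Gm10800*, ranks 3 and 4 in intergenic DNA of chromosomes 9 and 12, and rank 5 in an intron of *Chl1*, a neural cell adhesion gene. Of the first 100 members, 6 matched the mitochondrial genome, which is present in many copies per cell, at 93.1 to 100% identity. The longest, chr1:24618456-24620069, was 99.9% identical over 1614 bp and scored 189 in WT and 326, 141 and 260 in *Ezh2* KO, dKO and Y726D. Beyond the first 100 members only 1 matched, over 144 bp. *Sfi1*, a centrosomal gene, held 21 members, 3 of them among the first 200. Reads of repeated DNA depend on how alignments were kept, and the part of copy number in these scores was not tested.

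*Ezh1* and *Ezh2*, the targets of the editing, were themselves among the highest members. The study's methods describe deletion of the whole gene in the knockouts. Members in each gene were still listed in the lines with that deletion. The source of the reads in them was not tested, and the scores are not read as open chromatin of the deleted genes. *Ezh1* held 6 members, all touching exons of the gene, and 5 of them ranked within the first 200. Rank 1 (chr11:101079696-101080190) scored 1395 in WT, 2095 in *Ezh2* KO, 1200 in dKO and 2190 in Y726D, with a fold enrichment of 14.9 to 16.02. The exon printed above (chr11:101069435-101069590, rank 98) scored 8.29, 11.7, 9.91 and 14.5 in the same order. The member at chr11:101064349-101065251 (rank 107) scored 7.73, 19.3, 11.7 and 23.3, among the largest rises over WT in Y726D. At the 4 exon members other than rank 1 and the one at the 5' end of the gene, *Ezh2* KO and Y726D were above WT by 1.42 to 3.01 times and dKO by 1.10 to 1.51 times. The same 4 members had a peak of HA ChIP-seq in dKO ESCs that carried HA-tagged EZH1 and none in dKO ESCs without the tag. All 4 touch coding exons of *Ezh1*, and the tagged cells had been given a vector for human EZH1. The part of vector DNA in these peaks was not tested, and they are not read as EZH1 binding to its own gene. The member at the 5' end of the gene (chr11:101086363-101088152) scored 1.82 to 2.25 in the 4 lines. In *Ezh2*, the member chr6:47527365-47527782 (rank 39, 240 of 418 bp on exons) scored 24.5, 48.8, 26.6 and 49.0. The *Ezh2* promoter member (chr6:47544249-47546075) scored 2.25 to 2.84 and had H3K27ac in all 4 mutant lines.

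**Figure D2:**
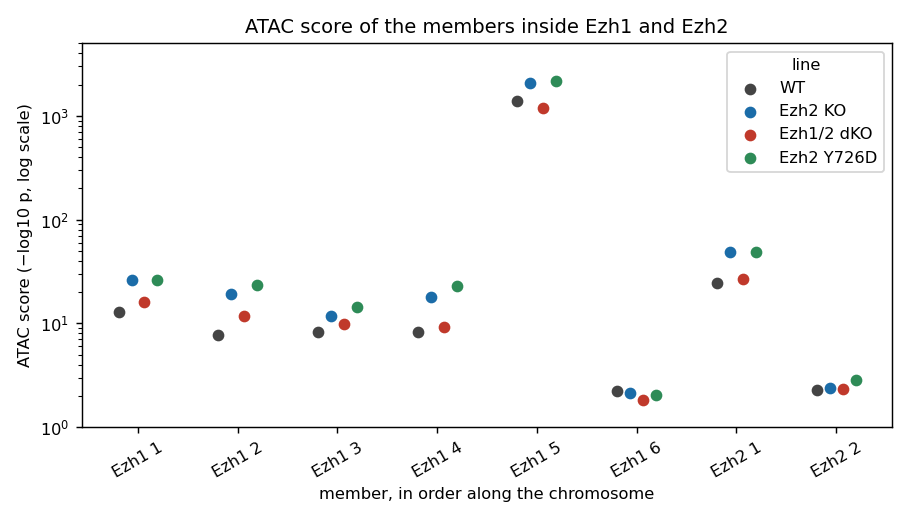
ATAC score (-log10 p, log axis) of the 6 *Ezh1* and 2 *Ezh2* members, in order along their chromosomes, with 1 point per line and 1 library per line. *Ezh1* 5 is rank 1, with scores from 1200 to 2190, and *Ezh1* 1 to 4 and *Ezh2* 1 are higher in *Ezh2* KO and Y726D than in WT.

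The RNA of the edited genes followed their labels. Normalized counts of *Ezh2* were 598 and 546 in WT, 1.05 and 0.968 in *Ezh2* KO, 0.824 and 1.78 in dKO, and 422 and 613 in Y726D. Both knockouts thus sat at 2 to 3 reads in all, a ratio to WT of 0.00177 (95% counting interval 0.000214 to 0.00641) in *Ezh2* KO and 0.00226 (0.000465 to 0.00662) in dKO. *Ezh1* had 227 and 377 in WT, 372 and 378 in *Ezh2* KO, 14.01 and 20.4 in dKO, and 24.1 and 15.7 in Y726D. Its log2 fold change was -4.03 (SE 0.35, limma adjusted p = 0.0027) in dKO and -3.84 (SE 0.35, adjusted p = 0.0023) in Y726D. The summed level of 20 pluripotency genes was 22475 to 27468 per library, and that of 9 measured differentiation genes 328 to 1223. Of 6 fibroblast genes only *Thy1* passed the filter, at 4.81 to 101.2, and it rose in dKO and Y726D ESCs (log2 fold change 3.53 and 3.30, limma adjusted p = 0.0094 and 0.013).

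Acetylation covered a larger share of members than of other open regions in each of the 4 mutant lines profiled. An H3K27ac peak shared a base with 3401 members in *Ezh2* KO (17.0%, 95% CI 16.5 to 17.5) against 2.48% of all regions outside SUZ12. In dKO these were 2334 (11.7%, 11.2 to 12.1) against 1.65%, in Y726D 4218 (21.1%, 20.5 to 21.7) against 3.75%, and in R685C 4954 (24.8%, 24.2 to 25.4) against 4.4%. The order of the lines followed the length of their H3K27ac lists, which held 25169, 17475, 40304 and 40434 peaks. With each list cut to the 17475 peaks of highest score, the shares were 14.2%, 11.7%, 13.3% and 16.8%, so that *Ezh2* KO and Y726D changed places. Between 13.7% and 17.0% of the peaks of a line fell on members. Their median score was 17.0, 15.0, 18.0 and 23.1 on members, compared with 14.8, 13.6, 15.2 and 17.0 over the whole lists.

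Most members had no H3K27ac in any line, and those that had it often had it in all. No peak covered 14444 members (72.2%), while 1396, 1004, 1121 and 2035 members were covered in 1, 2, 3 and 4 lines. Among members covered in a single line, 917 were of R685C and 428 of Y726D, against 33 of *Ezh2* KO and 18 of dKO. Of the first 100 members by WT score, 2, 4, 4 and 4 had a peak in *Ezh2* KO, dKO, Y726D and R685C, and the 95% intervals of these shares included the shares of all regions outside SUZ12 given above. Of the next 900, 17.8%, 10.1%, 23.4% and 28.1% had one. The 4000 members after rank 1000 had the highest shares, 22.8%, 15.3%, 27.3% and 32.2%.

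Acetylation was concentrated at promoters and wide members. Promoter members had a peak in 52.2%, 34.8%, 56.5% and 65.3% in the order *Ezh2* KO, dKO, Y726D and R685C. Gene body members had 8.60%, 5.55%, 12.9% and 15.5%, and intergenic members 9.75%, 7.32%, 13.5% and 16.1%. By width, the shares rose from 0.972%, 0.694%, 1.94% and 3.05% up to 200 bp to 45.4%, 32.9%, 52.8% and 59.8% over 1500 bp. The next 20000 regions over 1500 bp had 36.3%, 26.8%, 44.1% and 47.1%, so at this width they lay below the members in each line. The 698 regions on SUZ12 had another order, 7.88%, 12.03%, 32.2% and 14.2%, with Y726D highest.

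**Figure D3:**
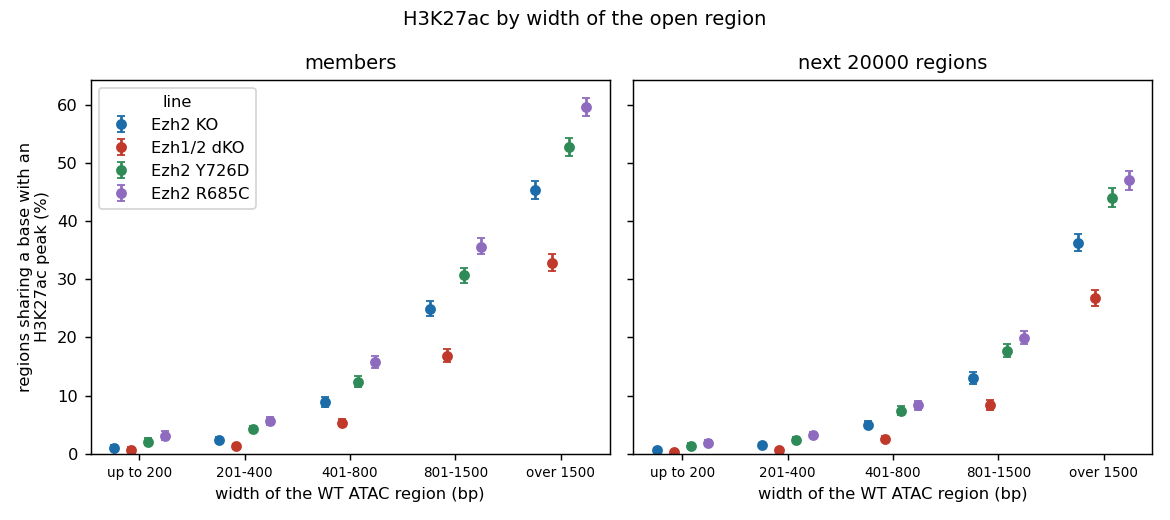
Share of members (left) and of the next 20000 regions (right) that shared a base with an H3K27ac peak (percent), by width of the WT ATAC region in bp. Points are 1 library per line and bars are Wilson 95% confidence intervals for counting error. Members over 1500 bp reach 32.9 to 59.8%, and the next regions of that width 26.8 to 47.1%.

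Away from promoters, members with a CTCF, YY1 or NRF1 match were acetylated less often in each of the 4 lines. Those with an ETS, SP1, ESRRB, KLF or SOX match were acetylated more often in each line. The 191 distal members with CTCF had H3K27ac in 2.62%, 2.09%, 5.76% and 6.81%, against 9.34%, 6.62%, 13.4% and 15.96% of distal members without it. The 74 with ETS had 27.03%, 20.3%, 35.1% and 32.4%, against 9.18%, 6.51%, 13.2% and 15.8% without it, and the 160 with SP1 had 21.3%, 13.1%, 33.1% and 34.4%, against 9.14%, 6.51%, 13.1% and 15.7%. The 1698 with KLF had 12.4%, 8.89%, 17.7% and 21.02%, against 8.90%, 6.30%, 12.8% and 15.3%. The 440 distal members with ESRRB, the motif of a nuclear receptor of the pluripotency network, had 17.0%, 11.8%, 23.0% and 25.2%, against 9.05%, 6.43%, 13.02% and 15.6%. Median widths were 481 to 537 bp with CTCF, ETS, KLF or ESRRB and 522 to 524 bp without, but 778 bp with SP1, and wider members share bases more readily. The 335 distal members with the octamer had 9.25%, 4.78%, 17.6% and 23.6%, against 9.26%, 6.61%, 13.2% and 15.7% without it. Their shares in the equal-length ATAC lists of *Ezh2* KO, dKO and Y726D were 34.3%, 14.03% and 23.6%, against 22.5%, 12.98% and 16.4% without it. Members with the octamer were wider, with a median of 676 bp against 520 bp, and the part of width in their shares was not tested. Distal members with SOX stood at 36.9%, 15.2% and 19.3% in the same lists, and at 22.5%, 12.97% and 16.5% without it. Median widths were 526 bp with SOX and 523 bp without. Distal members with SOX had H3K27ac in 9.84%, 9.02%, 16.4% and 18.4%, against 9.25%, 6.53%, 13.2% and 15.8%. The 386 with YY1 had 8.55%, 5.44%, 12.4% and 12.4%, against 9.28%, 6.60%, 13.3% and 15.9%. Their median width was 424 bp, against 527 bp without YY1. The 16 with NRF1 had 6.25%, 0%, 6.25% and 6.25%, against 9.26%, 6.58%, 13.3% and 15.9%. They were narrower too, with a median of 274 bp against 523 bp. These are counts in 1 library per line, and no motif difference was tested.

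H3K27me1 and H3K27me2 on the members depended on whether they were acetylated. The lists of these marks are permissive and lack some chromosomes, so the comparison of H3K27me1 used the 8 chromosomes that each of the 4 lists holds (9395 members) and H3K27me2 on 18 (18952 members). H3K27me1 covered 35.8% of members in WT, 25.7% in *Ezh2* KO, 21.9% in dKO and 34.6% in Y726D, against 27.9%, 39.1%, 29.9% and 33.2% of all regions outside SUZ12. The members thus stood above the other regions in WT and below them in *Ezh2* KO and dKO. H3K27me2 covered 35.0%, 20.3%, 42.1% and 44.8% of members, against 32.7%, 28.9%, 48.9% and 49.2%. The dKO list of H3K27me1 held 265118 regions, more than the 179915 of WT, and these lists reach down to a score of 1, so the comparison is within a line, between members and other regions. The paper reports that dKO and Y726D ESCs lost every form of H3K27 methylation in bulk. Whether the listed regions of these lines reflect methylation was not tested, and they are not read as marks that persist.

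The 2035 members with H3K27ac in all 4 lines differed from those with it in none, in a direction that depended on the line and the mark. H3K27me1 covered 45.4% of the former and 30.3% of the latter in WT, but 3.14% and 32.6% in *Ezh2* KO. In dKO it covered 19.1% and 23.5%, and in Y726D 61.1% and 28.4%. For H3K27me2 the WT shares were 28.2% and 33.5%, against 3.16% and 24.8% in *Ezh2* KO. In dKO and Y726D the order was the opposite, 52.6% and 39.9% in the former and 56.97% and 41.7% in the latter line. Whether the listed regions of dKO and Y726D reflect these marks was not tested. In *Ezh2* KO both shares fell step by step with the number of acetylated lines. Width moved with acetylation, with medians of 1584 bp in all 4 lines and 456 bp in none, and wider members share bases more readily, yet in *Ezh2* KO the wider group had the lower share.

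**Figure D4:**
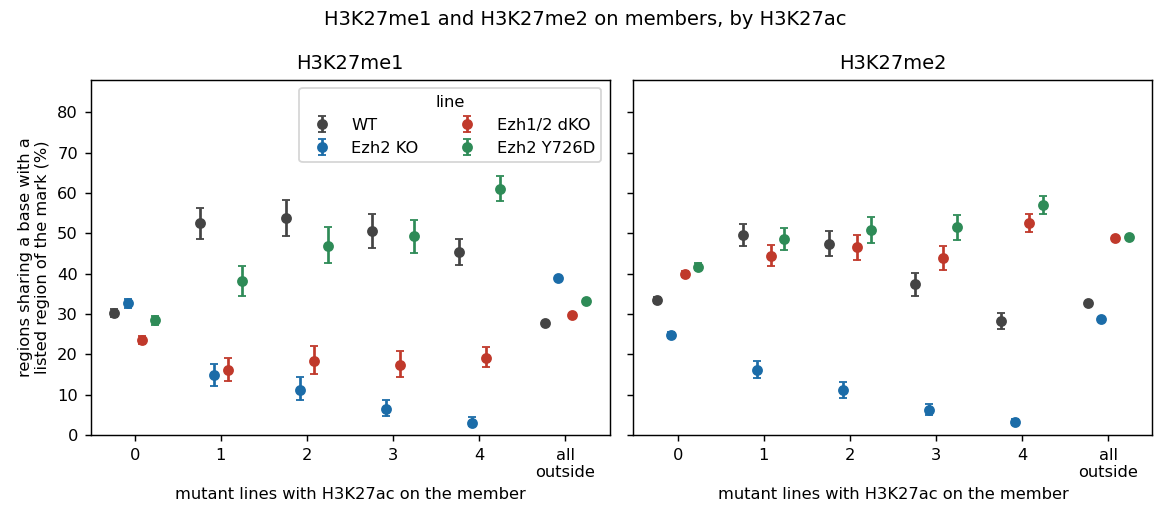
Share of members (percent) that shared a base with a listed region of H3K27me1 (left) or H3K27me2 (right), by the number of mutant lines with H3K27ac on the member, with all regions outside SUZ12 at the right end. Points are 1 library per line and bars are Wilson 95% confidence intervals for counting error. In *Ezh2* KO the shares fall from 32.6% to 3.14% and from 24.8% to 3.16%. Whether the listed regions of dKO and Y726D reflect methylation was not tested.

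H3K27me3 and SUZ12 were rare on the members, which in WT is partly set by their choice outside SUZ12. H3K27me3 covered 256 members in WT (1.28% against 0.821% of all regions outside SUZ12), 248 in *Ezh2* KO (1.24% against 0.531%) and 9 in dKO (0.045% against 0.00172%). It covered 95 in Y726D (0.475% against 0.239%) and 567 in R685C (2.84% against 1.57%). Of the first 100 members, 0 were covered in WT, 16 in *Ezh2* KO, 2 in dKO, 24 in Y726D and 20 in R685C. Peaks thus lay there also in dKO and in the catalytically dead line. The paper reports complete loss of H3K27me3 at Polycomb sites in both lines, and whether these peaks reflect H3K27me3 was not tested. SUZ12 peaks of the mutant lines touched 0 members in *Ezh2* KO, with a Wilson 95% upper limit of 0.0192%, and 2 in dKO (0.01%), against 0.000398% and 0.000265% of all regions outside SUZ12. In Y726D they touched 89 members (0.445% against 0.0517%) and in R685C 23 (0.115% against 0.0414%). HA peaks covered 207 members in dKO without the tag (1.04%, 0.904 to 1.18) and 240 with HA-EZH1 (1.2%, 1.06 to 1.36), intervals that overlap. Of all regions outside SUZ12, 0.146% and 0.158% were covered, so the members stood above them also in cells without the tag. On the 698 regions on SUZ12 these shares were 2.44% and 50.3%.

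RNA-seq, which the choice of members did not use, showed few changes at genes next to members. Of 13872 genes tested, 3353 had a member within 1 kb of a TSS. In *Ezh2* KO 4 of them were called higher (0.119%) and 4 lower (0.119%), against 0.0937% and 0.31% of all genes tested. In dKO 56 were called higher (1.67%) and 11 lower (0.328%), against 3.63% and 0.389%. In Y726D 22 were called higher (0.656%) and 30 lower (0.895%), against 1.66% and 1.06%. A gene was called at a limma adjusted p under 0.1 and a log2 fold change of at least 1 in size. The median log2 fold change of the 3353 genes was 0.01, -0.03 and -0.04, and that of all genes -0.01, 0.01 and -0.01. The shares called higher in dKO and Y726D ESCs were below those of all genes. Genes near WT SUZ12 were called higher more often, as given below. The members were chosen outside SUZ12, so the lower shares are partly set by the choice. Without WT SUZ12 within 5 kb, 1.52% and 0.591% of 3217 genes with a member were called higher. Of 8787 genes with neither a member nor such SUZ12 these were 2.49% and 0.922%, and the difference was not tested. These counts rest on 2 libraries per line: without 1 of the dKO libraries 2 or 0 genes were called higher in that line, and without Y726D replicate 1 77 were called lower in that line.

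The genes called higher in dKO were more frequent where the member had no acetylation. Of 612 genes with a member and no H3K27ac on it, 30 were higher in dKO (4.90%) and 14 in Y726D (2.29%). Of 2741 genes with an acetylated member, 26 (0.949%) and 8 (0.292%) were higher. The median WT level was 79.7 normalized counts in the former and 311 in the latter, and neither the difference in calls nor the part of this level in it was tested. Among 1732 genes with WT SUZ12 within 5 kb and no member, 228 (13.2%) and 127 (7.33%) were called higher, at a median WT level of 23.0.

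The genes with the largest rises ranged from nearly silent to moderately expressed in WT ESCs. *Brdt*, a testis-specific bromodomain protein, had 0 and 0.963 normalized counts in WT, 17.8 and 15.5 in *Ezh2* KO, 51.9 and 67.5 in dKO, and 8.92 and 15.7 in Y726D. All mutant libraries lay above both WT libraries, and with 1 read in WT the ratio was 106 in dKO with a 95% counting interval of 18.8 to 4226 (log2 fold change 5.43, limma adjusted p = 0.0059). *Hmcn1*, an extracellular matrix protein, had 14.7 and 10.6 in WT, 109 and 186 in *Ezh2* KO, 209 and 159 in dKO, but 15.2 and 11.2 in Y726D. It rose in the 2 lines with the *Ezh2* deletion (log2 fold change 3.41 and 3.76, SE 0.39, adjusted p = 0.011 and 0.0059) and had a log2 fold change of 0.06 in Y726D (adjusted p = 0.97), and the difference between lines was not tested. *Cers4*, a ceramide synthase, had 97.4 and 70.3 in WT, 238 and 246 in *Ezh2* KO, 313 and 313 in dKO, and 188 and 195 in Y726D. It passed the test in all 3 lines, with log2 fold changes of 1.54, 1.91 and 1.2 (SE 0.21).

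Other rises were of metabolic and transport genes. *Aldh1b1*, a mitochondrial aldehyde dehydrogenase, had 155 and 164 in WT, 369 and 450 in *Ezh2* KO, 385 and 269 in dKO, and 325 and 280 in Y726D. It passed in *Ezh2* KO (log2 fold change 1.35, limma adjusted p = 0.0496) and dKO (1.01, adjusted p = 0.0441) but not by size in Y726D (0.92). *Slc43a3*, a nucleobase transporter, had 24.0 and 7.70 in WT, 185 and 237 in dKO, and 74.0 and 129 in Y726D, with log2 fold changes of 3.83 and 2.74 (limma adjusted p = 0.0211 and 0.0606). *Acpp*, an acid phosphatase, had 5.34 and 3.85 in WT, 63.5 and 77.2 in dKO, and 25.9 and 66.0 in Y726D, with log2 fold changes of 3.68 and 2.94 (limma adjusted p = 0.0242 and 0.0495). *AA467197* had 5.34 and 5.78 in WT, 78.3 and 185 in dKO, and 38.3 and 61.5 in Y726D, with log2 fold changes of 4.21 and 2.92 (limma adjusted p = 0.0075 and 0.0324). In these 3 genes both libraries of each line named lay above WT. *Fmo1*, a flavin-containing monooxygenase, was at 0 in both WT and both *Ezh2* KO libraries and at 9.89 and 71.03 in dKO, at least 23.4-fold higher than a floor of 3 reads over the WT group. *F5*, coagulation factor V, had 0 and 1.93 in WT and 14.3 and 10.1 in Y726D, a ratio of 11.1 with a counting interval of 2.77 to 96.6.

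Falls in dKO were smaller than the rises, apart from the edited genes. *Ric8b*, a chaperone of G protein alpha subunits, had 299 and 228 in WT and 90.7 and 107 in dKO (log2 fold change -1.40, SE 0.25, limma adjusted p = 0.0295). *Slc27a2*, a fatty acid transporter and acyl-CoA synthetase, had 526 and 408 in WT, 214 and 184 in dKO, and 152 and 233 in Y726D (log2 fold changes -1.22 and -1.29, adjusted p = 0.0512 and 0.0496). *BC024978* had 38.7 and 59.7 in WT and 18.96 and 10.7 in dKO (-1.69, adjusted p = 0.082). *Smoc1*, a secreted calcium-binding protein, had 378 and 348 in WT but 123 and 119.02 in *Ezh2* KO (-1.57, SE 0.19, adjusted p = 0.012). In each of these the libraries of the line lay below both WT libraries.

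In Y726D ESCs the falls included genes that did not pass the test in the knockouts, among them *P2rx3* and *Slc1a4* of high WT level. *P2rx3*, an ATP-gated ion channel, had 791 and 763 in WT, 841 and 961 in *Ezh2* KO, 611 and 737 in dKO, and 30.3 and 6.71 in Y726D. Its log2 fold change in Y726D was -5.65 (SE 0.50, limma adjusted p = 0.0020). *Cyb5r2*, a cytochrome b5 reductase, had 60.03 and 86.7 in WT and 17.8 and 3.36 in Y726D (-3.01, adjusted p = 0.045). *Kcnt2*, a potassium channel, had 20.01 and 23.1 in WT and 5.35 and 0 in Y726D (-3.16, adjusted p = 0.093). *Slc1a4*, a neutral amino acid transporter, had 803 and 920 in WT and 332 and 45.9 in Y726D, 2 libraries far from each other (-2.79, SE 0.67, adjusted p = 0.083). All 4 genes had a member within 1 kb that was acetylated in at least 1 line, as had 2741 of the 3353 tested genes with a member. The *P2rx3* member had H3K27ac in R685C only, a line without RNA-seq. Those of *Cyb5r2*, *Kcnt2* and *Slc1a4* had it in Y726D among other lines. The difference in the changes of these 4 genes between lines was not tested.

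*Dux* and *Sp110* also fell in *Ezh2* KO and belong to multicopy families whose reads the counting may split, so their values are uncertain. *Dux*, a homeobox factor of the early embryo, had 36.02 and 23.1 in WT but 0 and 2.90 in *Ezh2* KO, a ratio of 0.0529 (counting interval 0.0106 to 0.163). *Sp110* had 56.03 and 21.2 in WT but 3.14 and 0.968 in *Ezh2* KO (log2 fold change -3.64, SE 0.67, limma adjusted p = 0.093).

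**Figure D5:**
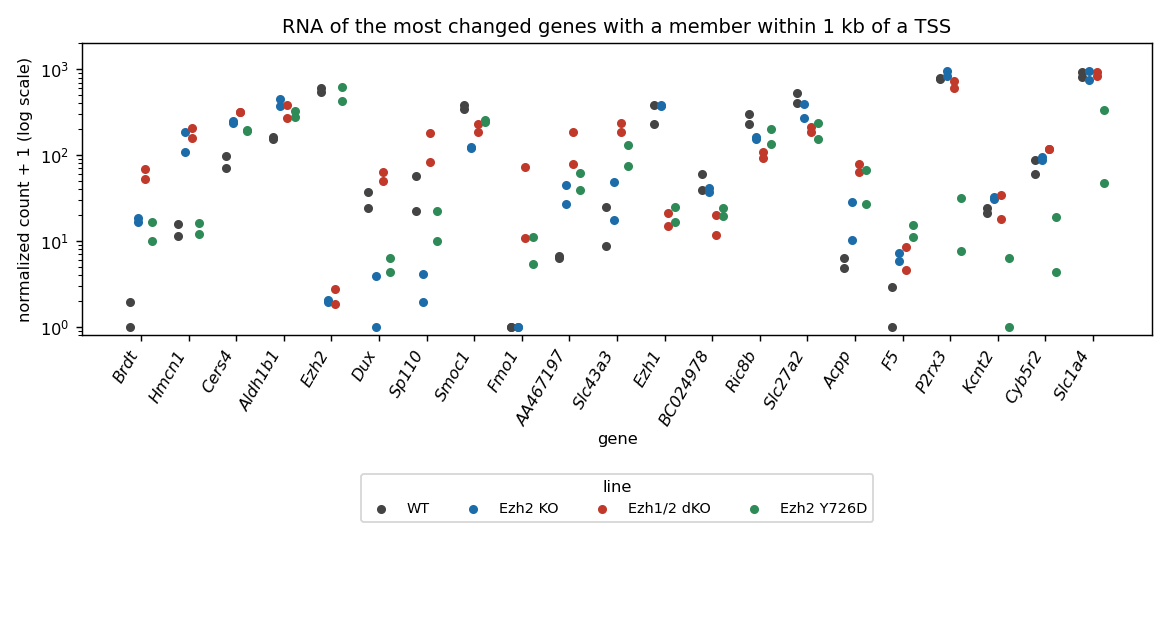
Normalized count plus 1 (log axis) of the 21 genes with the largest called rises and falls among genes with a member within 1 kb of a TSS, with 2 points per line for its 2 RNA-seq libraries. *Brdt* is near 0 in WT and highest in dKO, and *P2rx3* is between 611 and 961 except in Y726D.

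Genes of the fixed lists were mostly unchanged in call. Their members often carried H3K27ac, as did those of most genes with a member. Of 21281 protein-coding genes 3830 had a member (18.0%), and 2872 had one with H3K27ac in at least 1 line. Of 19 annotated pluripotency genes, *Klf2*, *Klf5* and *Zfp42* had a member, each acetylated in all 4 lines. *Zfp42*, a marker of undifferentiated ESCs, had 2375 and 1931 in WT, 2319 and 1852 in *Ezh2* KO, 1804 and 1768 in dKO, and 1959 and 2006 in Y726D, with both dKO libraries below WT (log2 fold change -0.26, limma adjusted p = 0.36). Of 16 Polycomb genes 6 had a member, and apart from *Ezh1* and *Ezh2* none was called: *Suz12*, *Jarid2*, *Pcgf1* and *Cbx7* had log2 fold changes of -0.11 to 0.30. Of 11 acetylation genes 5 had a member, among them *Ep300*, whose member was acetylated in all 4 lines, and *Crebbp*, whose member had no peak. Of 12 chromatin organisation genes 5 had one, including *Ctcf* and the cohesin subunit *Rad21*. None of the 5 and 5 genes was called, nor any of 10 ribosomal protein genes, nor *Gapdh* and *Ppia*. The median log2 fold change in dKO was -0.15 for the pluripotency, -0.02 for the acetylation, -0.14 for the chromatin organisation and -0.31 for the ribosomal protein genes, against 0.01 for all genes.

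*Krt8*, a keratin of early differentiating epithelium, was the only one of 14 annotated differentiation genes with a member, and it rose in dKO and Y726D ESCs. Its member had no H3K27ac, and WT SUZ12 lay within 5 kb of the gene. It had 74.7 and 132 normalized counts in WT, 180 and 252 in *Ezh2* KO, 237 and 359 in dKO, and 259 and 348 in Y726D, so that every mutant library lay above both WT libraries. Its log2 fold change was 1.54 (SE 0.33, limma adjusted p = 0.0442) in dKO and 1.59 (adjusted p = 0.0495) in Y726D, and 1.09 (adjusted p = 0.31) in *Ezh2* KO. No fibroblast gene had a member.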

How the data were processed

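Per the study's methods and the submitters' processing notes, the authors mapped the ChIP-seq and ATAC-seq libraries with Bowtie (mm9, unique alignments, duplicates taken out by Picard) and ran MACS2 on each library. The deposited lists give a -log10 p per peak or region. The ATAC lists also hold the authors' fold enrichment, a ratio. Lists from 1 library can differ with depth and alignment of repeats. The deposited RNA-seq table holds a signal, read counts per gene that the authors divided by DESeq2 size factors. Genes were counted without strand, so reads of overlapping antisense genes cannot be told apart. Of these values 100% were whole multiples of the smallest step in their library, and the reads recovered from them served the count tests. Columns of the authors' own fold changes and p-values were not used.

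Members were selected on chromosomes 1 to 19 by the -log10 p of the WT ATAC list. The members and all gene lists were chosen with earlier results of these data known. Overlap was 1 bp. H3K27ac, H3K27me3 and SUZ12 peaks all had p of at most 1e-10. Genes and sequence came from the mouse annotation and genome of assembly NCBIM37 (mm9), with matches to the mitochondrial genome by BLAST 2.17.0. Of 18055 genes of the RNA-seq table, 15099 were matched by symbol and 752 by synonym. Shares carry Wilson 95% intervals. RNA-seq was tested with limma 3.58.1 (trend, all 8 libraries, log2 of the normalized count plus 1, mean of at least 5, Benjamini-Hochberg over all genes). Alternatives used edgeR 4.0.16 and DESeq2 1.42.0. Fold changes on this scale understate the change of low genes. Functions were tested on simulated data. Python 3.11.15, numpy 2.4.6, pandas 2.3.3, scipy 1.17.1, matplotlib 3.10.9 and R 4.3.3 were used. Replicate numbers were not used as pairs. Named regions were the 5 members of highest WT score, those at the cut and those with the largest change of score per line. Named genes were list genes with a member within 1 kb and, per line, up to 5 called rises and 5 called falls with both libraries beyond both WT libraries.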

Additional observations from a re-analysis of the deposited data

Results flagged for a closer look

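Some genes with a member within 1 kb of a TSS moved in opposite directions in different mutant lines, with both libraries of a line on one side of both WT libraries or of the other line. The differences between lines were not tested. The log2 fold change of *Dux* was -3.92 in *Ezh2* KO and -2.51 in Y726D but 0.92 in dKO, where its normalized counts were 48.6 and 63.0 against 36.0 and 23.1 in WT. *Sp110* had -3.64 in *Ezh2* KO and 1.79 in dKO. Both belong to multicopy families. *P2rx3* had 0.21 in *Ezh2* KO, -0.21 in dKO and -5.65 in Y726D. *Kcnt2* had 0.49 in *Ezh2* KO and -3.16 in Y726D. *Cyb5r2* had 0.33 in *Ezh2* KO, 0.70 in dKO and -3.01 in Y726D. With 2 libraries per line, the rises of these genes did not pass the limma test. Nor did the falls of *Dux* in Y726D (limma adjusted p = 0.12) and of *P2rx3* in dKO (limma adjusted p = 0.85).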

How the results depend on the processing

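ATAC and ChIP-seq shares rest on 1 library per line with unknown depth, so their intervals cover counting error only. In the order *Ezh2* KO, dKO and Y726D, the share of members in the equal-length ATAC lists was 22.6%, 13.4% and 17.7% with 50% of the member covered, 82.9%, 81.7% and 81.0% with lists as deposited, 50.8%, 32.9% and 40.5% for the 5000 highest members, and 25.6%, 15.6% and 20.01% with lists ranked by signal value. *Ezh2* KO was highest in each of these settings, and dKO lowest in each but the lists as deposited, where Y726D was lowest. H3K27ac in *Ezh2* KO, dKO, Y726D and R685C was 15.98%, 10.7%, 19.5% and 23.4% with 200 bp shared, 7.20%, 3.28%, 10.4% and 16.1% at p of at most 1e-20, and 21.5%, 14.1%, 26.2% and 30.9% for the 5000 highest members. With lists of equal length it was 14.2%, 13.3% and 16.8% in *Ezh2* KO, Y726D and R685C. H3K27me1 in WT, *Ezh2* KO, dKO and Y726D was 22.6%, 17.0%, 11.5% and 18.1% with 50% covered, 27.9%, 18.2%, 11.5% and 19.6% with the upper part of each list by its median, and 36.9%, 20.5% and 18.4% in the first 3 lines for the 5000 highest members. H3K27me2 was 19.8%, 14.6%, 24.5% and 26.7%, then 24.4%, 15.4%, 23.7% and 25.5%, and 31.7%, 17.7%, 39.5% and 43.1% under the same settings. Over all chromosomes, an alternative chosen after seeing the data, H3K27me1 was 24.1%, 17.9% and 16.3% in *Ezh2* KO, dKO and Y726D, and H3K27me2 33.2%, 40.9% and 43.6% in WT, dKO and Y726D.

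Genes near members called lower in *Ezh2* KO were 2 with edgeR, 7 with DESeq2 and 2 without a filter on low values. Without that filter, Y726D had 13 higher and 16 lower. With members within 5 kb, 8 were lower in *Ezh2* KO, 89 higher and 18 lower in dKO, and 49 lower in Y726D. With each library left out in turn, the counts ranged from 0 to 9 higher and 1 to 6 lower in *Ezh2* KO, 0 to 83 higher and 2 to 15 lower in dKO, and 8 to 25 higher and 11 to 77 lower in Y726D. A line left with 1 library is then assumed to vary like the others. Genes higher in *Ezh2* KO were 2 and 9 without WT replicates 1 and 2, and 1 and 0 without *Ezh2* KO replicates 1 and 2. Genes lower in it were 1 without WT replicate 1 or either *Ezh2* KO library, and 2 without either dKO library. Without dKO replicates 1 and 2, 2 and 0 genes were higher in dKO and 2 were lower, and in Y726D 9 were higher and 11 lower. Without Y726D replicate 2, 8 were higher and 13 lower in Y726D, and without replicate 1 77 were lower. The lower count in Y726D was 19 and 16 without WT replicates 1 and 2, and 19 without either *Ezh2* KO library. Deviations of libraries with the same number correlated between -0.409 and 0.288, so the numbers were not taken as pairs. With a replicate block, the counts were 3 higher and 2 lower in *Ezh2* KO, 54 and 9 in dKO, and 18 and 20 in Y726D. Of all values recomputed, 63 stayed within their interval or within 1.5 times the count and 90 did not.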
